A study of Homo sapiens with 14 samples.

Results

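The members are the genes that make and restrain enzymes cutting the extracellular matrix and cell-surface proteins: matrix metalloproteases (MMP), ADAM and ADAMTS metalloproteases, the plasminogen activators PLAT and PLAU, the tissue inhibitors of metalloproteases (TIMP), and serpins of the E, F and H groups. They were chosen by symbol alone (MMP, ADAM and ADAMTS with a number, TIMP with a digit, SERPINE, SERPINF and SERPINH with a digit, PLAU and PLAT), which gave 72 of the 20043 genes named on the array. They comprised 22 MMP, 21 ADAM, 18 ADAMTS, 2 plasminogen activator, 4 TIMP and 5 serpin genes. Total RNA of 2 human melanoma cell lines, WM266-4 and A375, both labelled as carrying a BRAF mutation, was measured on 14 Illumina bead arrays, which read each transcript with a short probe. WM266-4 cells had been treated with siRNA 1 against the forkhead transcription factor FOXD1 (3 arrays), with an siRNA labelled FOXD1 siRNA 2 (3 arrays), or with a negative control siRNA of high GC content (3 arrays). A375 cells carried a FOXD1 plasmid (overexpression, 3 arrays) or its empty vector (2 arrays), which the labels describe in one place as transfected and in another as transduced. Nothing in the labels tells whether replicates came from separate cultures, so the p-values below measure only the spread between these arrays, which may be technical.

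Matrix metalloproteases are zinc enzymes made as inactive precursors; the membrane-type ones sit on the cell surface, the others are secreted, and all are blocked by the TIMPs. ADAMs are membrane-anchored and mainly release the outer parts of other membrane proteins, while ADAMTS enzymes are secreted and act on proteoglycans and procollagens. PLAT and PLAU turn plasminogen into plasmin, and serpins trap serine proteases of this kind. Not all members fit that description: SERPINH1 is a chaperone of collagen in the endoplasmic reticulum, SERPINF1 inhibits no protease, ADAM22 and ADAM23 lack a working catalytic site, and ADAM5 and ADAM6 are annotated as transcribed pseudogenes.

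The siRNAs are shown because the 2 groups that received them differed in the targeted gene and in the members described below; both sequences are as the labels give them, 5′ to 3′, each of 25 bases, with 32% G and C in siRNA 1 and 60% in siRNA 2.
siRNA 1: uacugcuaggauuuccaauuguuaa
siRNA 2: gccgaggaaacagacaucgacgugg

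Promoters (300 bases around the gene start, RefSeq, GRCh38.p14, written 5′ to 3′ along the gene) are shown for the 4 members that were detected on all 14 arrays and passed the test in either siRNA group. They are ADAM17 (chr2:9555781-9556080, minus strand), MMP8 (chr11:102724905-102725204, minus strand), MMP14 (chr14:22836335-22836634, plus strand) and SERPINH1 (chr11:75562003-75562302, plus strand). Capitals mark the match to the TEAD motif described after the sequences.
ADAM17: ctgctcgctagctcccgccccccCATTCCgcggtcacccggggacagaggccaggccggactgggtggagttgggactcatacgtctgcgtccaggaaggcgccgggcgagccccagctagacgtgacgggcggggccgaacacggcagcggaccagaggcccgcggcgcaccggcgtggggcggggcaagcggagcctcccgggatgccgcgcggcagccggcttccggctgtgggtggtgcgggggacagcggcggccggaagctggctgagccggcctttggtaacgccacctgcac
MMP8: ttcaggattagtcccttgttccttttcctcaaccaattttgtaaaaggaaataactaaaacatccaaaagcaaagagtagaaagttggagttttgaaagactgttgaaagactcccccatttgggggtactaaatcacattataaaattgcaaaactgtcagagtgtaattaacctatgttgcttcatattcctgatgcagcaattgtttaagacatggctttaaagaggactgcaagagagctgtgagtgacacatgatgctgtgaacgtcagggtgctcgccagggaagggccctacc
MMP14: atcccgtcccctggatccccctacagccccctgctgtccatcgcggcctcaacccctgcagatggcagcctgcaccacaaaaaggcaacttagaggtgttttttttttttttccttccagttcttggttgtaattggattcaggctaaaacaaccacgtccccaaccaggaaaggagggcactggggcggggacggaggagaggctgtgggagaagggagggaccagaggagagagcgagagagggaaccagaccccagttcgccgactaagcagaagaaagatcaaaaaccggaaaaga
SERPINH1: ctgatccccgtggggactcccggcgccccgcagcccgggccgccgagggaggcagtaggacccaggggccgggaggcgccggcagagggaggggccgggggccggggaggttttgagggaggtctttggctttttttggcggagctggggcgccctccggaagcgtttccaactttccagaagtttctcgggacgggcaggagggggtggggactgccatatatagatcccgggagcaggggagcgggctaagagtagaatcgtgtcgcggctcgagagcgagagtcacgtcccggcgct

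Of the 72 members, 41 had a promoter in the table used. On both strands, the TEAD motif GGAATG lay in 5 of these 41 (ADAM17, ADAMTS12, ADAMTS13, ADAMTS20, ADAMTS6), against 14% of all 35116 promoters. In ADAM17 it reads CATTCC on the strand printed, from base -227 to the gene start. The AP-1 motif TGANTCA lay in 5 of the 41 (ADAMTS12, MMP10, MMP20, MMP7, SERPINE3), against 7.71% of all promoters, and the forkhead motif GTAAACA in 2 of the 41 (ADAMTS13 and MMP27), against 3.42%. No motif contains another, and none of the 3 was found in the MMP8, MMP14 or SERPINH1 windows.

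The arrays had 22104 to 24257 probes detected (deposited detection p under 0.05) and a median deposited intensity of 91.6 to 103.9. For A375 empty vector replicate 1 the deposited intensities repeated those of overexpression replicate 3, with 100% of probes within 1% of each other against at most 7.41% in any other pair of arrays. Its signal was therefore taken back from the authors' processed log2 values, and each overexpression result and each difference between the lines rests on that replacement. FOXD1 itself was at 4.34, 4.34 and 4.57 with siRNA 1, where it was detected on 1 of 3 arrays, against 5.60, 5.67 and 6.16 with control siRNA, and was called lower (adjusted p = 8.01e-05). The arrays did not overlap, and the size of the fall is not measured where the probe was not above background. It differed by 0.10 with siRNA 2 (95% interval -0.25 to 0.45, adjusted p = 0.801). The source label of that second siRNA's arrays names FOXD2, so they are called the arrays labelled siRNA 2 throughout. FOXD2 was not called lower there either (-0.04, 95% interval -0.35 to 0.27, adjusted p = 0.923). CCN2, the gene of the secreted factor CTGF named in the title of the study, was lower in both siRNA groups, with log2 differences of -3.05 for siRNA 1 and -3.29 for the arrays labelled siRNA 2. In the overexpressing A375 cells FOXD1 was higher by 0.42 (adjusted p = 0.187), which did not pass the test. CCN2 was higher in those cells by 2.61 (95% interval 1.96 to 3.26, adjusted p = 0.000391). Of 7 melanocyte lineage markers with a probe, 4 were detected on every WM266-4 array and 6 on every A375 array; MLANA was detected on 3 of the 9 WM266-4 arrays. The fibroblast marker PDGFRA, the endothelial marker CDH5, the leukocyte markers PTPRC and CD3E and the epithelial marker KRT8 were detected on no array, whereas COL1A2, VWF and CD14 were detected on all 14. Overexpression replicate 3 stood apart in the melanocyte gene PMEL, at a log2 signal of 10.01 against 13.56 and 13.12 on the other overexpression arrays and 13.14 and 13.30 with empty vector, so an overexpression difference printed below is given without it too where that changes the call or moves the value by over 1.5 times.

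Signals are given as the background-corrected, then normalized log2 intensity of the brightest probe of a gene. They compare arrays for 1 gene and never 1 gene with another. Of the 72 members, 50 were detected on at least 2 arrays and entered the test with 15544 genes in all, and 22 were detected on every array. Among the MMPs, the collagenases MMP1 and MMP8, the gelatinase MMP2 and the membrane-type enzymes MMP14, MMP15 and MMP16 were detected on all 14 arrays. MMP3, MMP10, MMP11, MMP17, MMP19, MMP20, MMP21, MMP24, MMP25 and MMP28 were detected on some arrays. MMP12 and MMP26 were each detected on 1 array, and MMP7, MMP9, MMP13 and MMP27 on none.

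Among the ADAMs, 8 were detected on all 14 arrays: ADAM9, ADAM10, ADAM12, ADAM15, ADAM17, ADAM19, ADAM22 and ADAM23. ADAM2, ADAM6, ADAM21, ADAM29, ADAM32 and ADAM33 were detected on some arrays, ADAM8, ADAM11 and ADAM30 on 1 array each, and ADAM5, ADAM18, ADAM20 and ADAM28 on none. Of the 18 ADAMTS genes, ADAMTS1 alone was detected on every array. ADAMTS3, ADAMTS4, ADAMTS5, ADAMTS6, ADAMTS8, ADAMTS13, ADAMTS15 and ADAMTS18 were detected on some. ADAMTS2, ADAMTS9, ADAMTS10, ADAMTS14, ADAMTS16 and ADAMTS17 were detected on 1 array each, and ADAMTS12, ADAMTS19 and ADAMTS20 on none. All 4 TIMPs, PLAT, SERPINE2 and SERPINH1 were detected on 14 arrays, whereas PLAU, SERPINE3, SERPINF1 and SERPINF2 were detected on some.

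**Figure D1:**
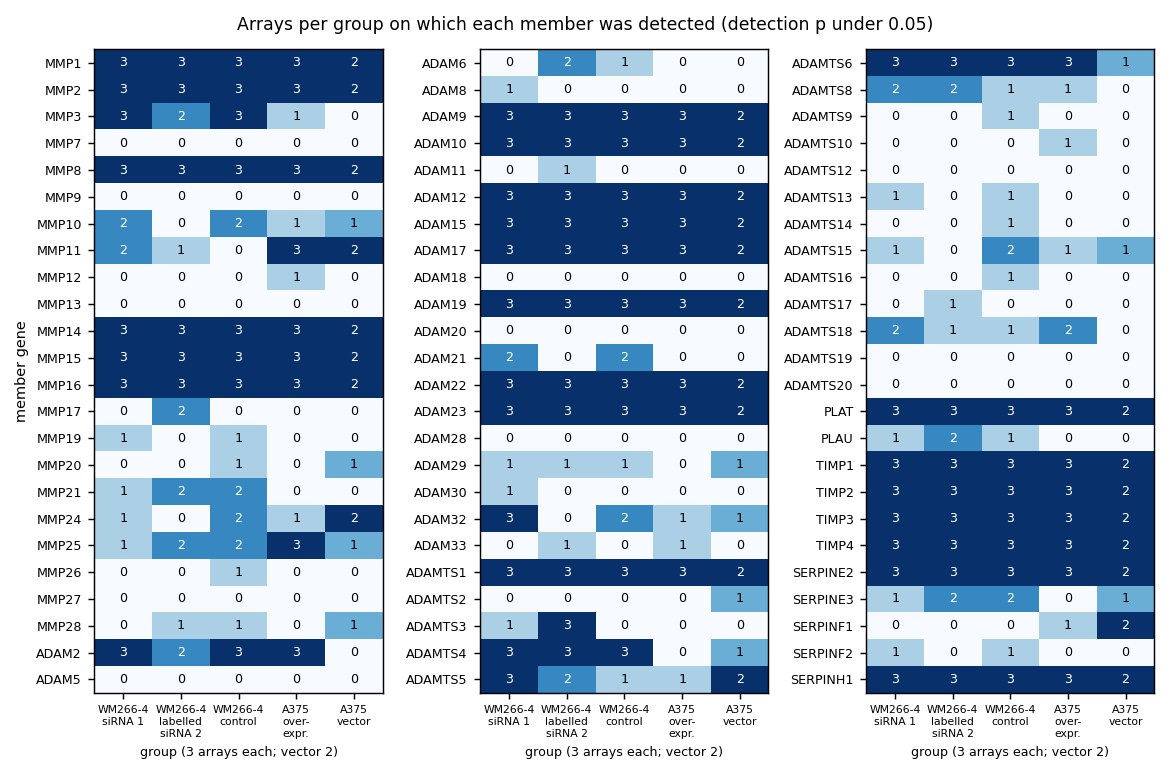
Number of arrays of each group (columns: WM266-4 siRNA 1, labelled siRNA 2 and control siRNA, 3 arrays each; A375 overexpression, 3, and empty vector, 2) on which each of the 72 members (rows) had a detection p under 0.05; darker cells mean a larger share of the group. The 22 members in full dark rows were detected on all 14 arrays, and most ADAMTS genes on few or none.

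On chromosome 11, 9 MMP genes follow each other with no other protein-coding gene between them in the RefSeq order (GRCh38.p14): MMP7, MMP20, MMP27, MMP8, MMP10, MMP1, MMP3, MMP12 and MMP13. In that order they were detected on 0, 2, 0, 14, 6, 14, 9, 1 and 0 arrays. The genes from MMP8 to MMP12 were thus each detected on at least 1 array, though MMP12 on only 1. MMP20, outside that stretch, was detected on 2 arrays. MMP27, which borders it, and MMP13 at the end of the run were detected on none. The 2 genes of the run detected on every array were the collagenases MMP8 and MMP1.

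In 1 limma fit of the 5 groups, a member counted as called when its adjusted p (Benjamini-Hochberg, 15544 genes) was under 0.05. In this bulk RNA, fewer cells making a transcript and less of it per cell cannot be told apart. With siRNA 1, 2 of the 50 tested members were called against control siRNA, both lower (ADAM17 and MMP8), beside 13.3% of all genes (6.82% higher, 6.48% lower). On the arrays labelled siRNA 2, 3 members were called, ADAMTS3 higher and MMP14 and SERPINH1 lower, beside 6.58% of all genes (3.94% higher, 2.64% lower). For the mean of both siRNA groups, 2 members were called, ADAM17 and MMP8, both lower, beside 11.2% of all genes (6.21% higher, 4.95% lower). Thus the share of members called was 4%, 6% and 4% in these 3 comparisons, at or below that of all genes.

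In the direct test of siRNA 1 against the arrays labelled siRNA 2, MMP14 was higher and MMP8 lower with siRNA 1, 2 of 50 members beside 5.51% of all genes (1.74% higher, 3.77% lower). FOXD1 overexpression against empty vector called 1 member, MMP16, which was higher, beside 7.15% of all genes (3.67% higher, 3.48% lower). Between the lines, A375 with empty vector against WM266-4 with control siRNA, 14 members were called, 2 higher and 12 lower, beside 21.0% of all genes (11.9% higher, 9.10% lower). The lower calls made up 24% of the members tested. Over the 50 tested members the median log2 difference was 0.014 with siRNA 1, -0.063 on the arrays labelled siRNA 2, 0.13 with overexpression and -0.16 between the lines; over all genes it was 0.0051, 0.00077, 0.0034 and 0.0019. Of the 22 members detected on every array, 17 were higher with overexpression, and 1 was called, beside 9.72% of all genes detected on every array. Without overexpression replicate 3, 15 were higher and 7 lower, and 3 were called (MMP16 and ADAM15 higher, MMP2 lower). The share of all genes called in that fit is not given, so these 3 are not read against the 1 above. Between the lines 18 of the 22 were lower in A375 with empty vector, 11 of them called, beside 28.6% of all genes detected on every array. The median half-width of the 95% interval of these 22 was 0.39 against control siRNA and 0.43 against empty vector, so smaller changes could not be resolved.

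**Figure D2:**
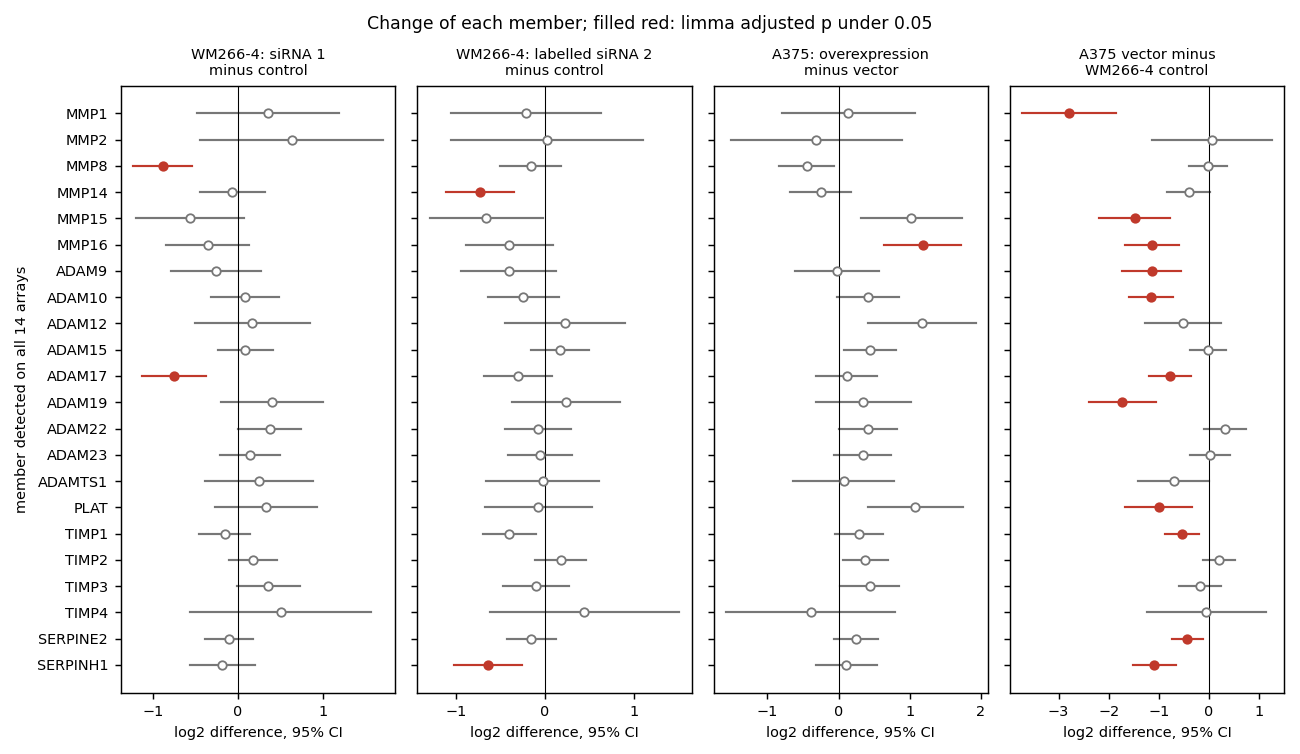
Log2 difference (x axis, with its 95% confidence interval) of the 22 members detected on all 14 arrays (y axis) in 4 comparisons; filled red points have a limma adjusted p under 0.05. Red points are few for the siRNAs and overexpression, and in A375 with empty vector against WM266-4 with control siRNA 11 of 22 are red, all on the lower side, beside 28.6% of all genes detected on every array.

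Among the membrane-type MMPs, MMP14, which cleaves fibrillar collagen at the cell surface and activates the MMP2 precursor, differed between the siRNA groups. Its log2 signal was 7.20, 6.73 and 7.41 on the arrays labelled siRNA 2 and 7.75, 7.74 and 7.83 with siRNA 1, against 7.78, 7.92 and 7.82 with control siRNA. All 3 arrays labelled siRNA 2 lay below every array of the other WM266-4 groups, whereas siRNA 1 and control siRNA overlapped. Against control siRNA MMP14 fell by 0.73 on the arrays labelled siRNA 2 (SE 0.178, 1.66-fold lower, adjusted p = 0.0255) and differed by -0.07 with siRNA 1 (95% interval -0.45 to 0.31, adjusted p = 0.880). The difference between the siRNA groups themselves was 0.66 (SE 0.178, adjusted p = 0.0444). The call on the arrays labelled siRNA 2 was lost without any 1 control array (adjusted p = 0.0636 without replicate 1, 0.0893 without replicate 2 and 0.0563 without replicate 3) and without labelled siRNA 2 replicate 1 (0.0553) or 2 (0.0959). The call between the siRNA groups was lost in 10 of 14 such fits: without each siRNA 1 array (0.0947 to 0.137), labelled siRNA 2 replicate 1 or 2 (0.0828 and 0.180), each control array (0.0557 to 0.0586) and overexpression replicate 1 or 2 (0.0562 and 0.0548). In A375, MMP14 was at 7.28, 7.32 and 6.98 with overexpression, against 7.21 and 7.67 with empty vector, and these groups overlapped (difference -0.25, 95% interval -0.68 to 0.18, and -0.15 without overexpression replicate 3).

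MMP16, another membrane-type enzyme, was the member called with FOXD1 overexpression. Its log2 signal was 8.62, 8.89 and 9.19 in overexpressing cells, against 7.80 and 7.64 with empty vector. The groups did not overlap, and MMP16 rose by 1.18 (SE 0.252, 2.27-fold, adjusted p = 0.0149). A second MMP16 probe, also detected on every array, differed by 1.03 in the same direction (95% interval 0.33 to 1.73, adjusted p over all probes = 0.0786). Without empty vector replicate 2 the call was lost (difference 1.10, adjusted p = 0.134), and without overexpression replicate 3 it held (1.04, adjusted p = 0.0365). In WM266-4 MMP16 was at 8.89, 8.29 and 8.33 with siRNA 1 and 8.93, 8.17 and 8.28 on the arrays labelled siRNA 2, against 9.11, 8.65 and 8.82 with control siRNA; the groups overlapped and neither difference was called (-0.36 and -0.40, adjusted p = 0.372 and 0.360).

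MMP15, of the same membrane-type group, was at 6.90, 7.68 and 8.25 with overexpression, against 6.25 and 6.92 with empty vector. These groups overlapped narrowly, and the difference of 1.02 was not called (SE 0.330, adjusted p = 0.0772). Without overexpression replicate 1 it was 1.38 with an adjusted p of 0.0172, and without overexpression replicate 3 it was 0.70 (adjusted p = 0.193). In WM266-4 it was at 7.57, 7.35 and 7.59 with siRNA 1 and 7.75, 6.95 and 7.52 on the arrays labelled siRNA 2, against 8.28, 7.91 and 8.02 with control siRNA. All 6 siRNA arrays lay below the 3 control arrays, but neither difference was called (-0.57 and -0.66, adjusted p = 0.260 and 0.227). With the replicate number as a block in both lines, both were called (adjusted p = 0.0195 and 0.0172). With that block in WM266-4 only, neither was called. MMP17, anchored to the membrane by a lipid, was detected only on 2 arrays, both labelled siRNA 2.

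Of the secreted MMPs, MMP8, the collagenase best known from neutrophils, fell with siRNA 1. It was at 7.70, 7.78 and 7.99 with siRNA 1 and 8.37, 8.48 and 8.79 on the arrays labelled siRNA 2, against 8.52, 8.82 and 8.78 with control siRNA. The siRNA 1 arrays lay below all others of WM266-4, and the other groups overlapped. MMP8 fell by 0.89 with siRNA 1 (SE 0.160, 1.85-fold lower, adjusted p = 0.00218) and differed by -0.16 on the arrays labelled siRNA 2 (95% interval -0.51 to 0.18, adjusted p = 0.653). The difference between the siRNA groups was -0.72 (SE 0.160, adjusted p = 0.0157), which was not called without siRNA 1 replicate 1 (adjusted p = 0.0760) or 2 (0.0530) or without labelled siRNA 2 replicate 3 (0.0675). A dimmer MMP8 probe, detected on 13 arrays, differed by -0.25 with siRNA 1 (95% interval -0.74 to 0.24) and by -0.41 between the siRNA groups (-0.90 to 0.09), neither called over all probes. For the mean of both siRNA groups MMP8 was lower by 0.52 on the log2 scale (-0.52, adjusted p = 0.0257), a call lost without control replicate 2 (0.125) or 3 (0.0875), siRNA 1 replicate 1 (0.0573) or labelled siRNA 2 replicate 1 (0.0561).

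MMP1, the interstitial collagenase, was the member with the largest difference between the lines. It was at 4.82 and 5.36 in A375 with empty vector, against 7.68, 7.47 and 8.49 in WM266-4 with control siRNA. The lines did not overlap, and MMP1 was 6.90-fold lower in A375 (log2 difference -2.79, SE 0.436, adjusted p = 0.000618). Within the lines it was not called: it was at 7.38, 8.35 and 8.98 with siRNA 1 and 7.03, 7.57 and 8.40 on the arrays labelled siRNA 2, overlapping control, and at 5.20, 5.24 and 5.26 with overexpression, between the empty vector arrays. The stromelysin MMP3 was detected on 0 of 2 empty vector arrays and 3 of 3 control siRNA arrays, at least 1.80-fold lower in A375 (adjusted p = 0.0225). MMP11, a stromelysin cut to its active form by furin, was detected on 2 of 2 empty vector arrays and 0 of 3 control siRNA arrays, at least 1.60-fold higher in A375 (adjusted p = 0.0300). Such a bound sets the mean of the brighter group against, per array, the higher of the lowest detected signal and the probe's own. It allows for the detection limit only and not for the spread between arrays, so the true difference can be smaller.

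MMP2, the gelatinase activated by MMP14, showed the widest spread of the 22. It was at 7.58, 6.63 and 6.91 with siRNA 1 and 6.47, 6.46 and 6.36 on the arrays labelled siRNA 2, against 6.45, 6.31 and 6.47 with control siRNA. Every siRNA 1 array was above every control array, yet the difference of 0.63 was not called (95% interval -0.44 to 1.70, adjusted p = 0.496). In A375 the overexpression arrays lay at 4.88, 5.77 and 7.82, on both sides of the empty vector arrays at 6.40 and 6.53, and the difference was -0.31 (95% interval -1.51 to 0.89, adjusted p = 0.806). This value rests on overexpression replicate 3, the highest array: without it MMP2 was lower with overexpression by a called log2 difference of -1.14 (95% interval -1.78 to -0.51, adjusted p = 0.0365).

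Among the ADAMs, ADAM17, the sheddase that frees tumour necrosis factor and several growth factor ligands, fell with siRNA 1. It was at 8.02, 7.46 and 8.20 with siRNA 1 and 8.30, 8.25 and 8.47 on the arrays labelled siRNA 2, against 8.74, 8.58 and 8.63 with control siRNA. The 3 groups did not overlap, and the lowest array was siRNA 1 replicate 2. ADAM17 fell by 0.75 with siRNA 1 (SE 0.177, 1.69-fold lower, adjusted p = 0.0108) and differed by -0.31 on the arrays labelled siRNA 2 (95% interval -0.68 to 0.07, adjusted p = 0.375). The difference between the siRNA groups was -0.45 and not called (adjusted p = 0.189). With siRNA 1 the 2 other ADAM17 probes, both detected on 14 arrays, differed by -0.59 (95% interval -1.17 to -0.01) and -0.35 (-0.90 to 0.20), neither called over all probes. For the mean of both siRNA groups ADAM17 differed by -0.53 (adjusted p = 0.0385), a call lost without any 1 control array (0.0874 to 0.144), siRNA 1 replicate 1 or 2 (0.0501 and 0.0554) or labelled siRNA 2 replicate 1 or 2 (0.0701 and 0.0673). The calls of ADAM17 and MMP8 for siRNA 1 alone held whichever of the 14 arrays was left out, with adjusted p at most 0.0464 and 0.0141.

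ADAM10, the sheddase of Notch receptors and cadherins, lay at 9.36, 9.11 and 9.45 with siRNA 1 and 9.36, 8.52 and 9.06 on the arrays labelled siRNA 2, against 9.32, 9.05 and 9.30 with control siRNA. These groups overlapped. Between the lines it was lower in A375, at 8.09 and 8.04 with empty vector (log2 difference -1.16, SE 0.206, adjusted p = 0.00140), and a second ADAM10 probe differed by -1.65 (adjusted p over all probes = 0.000145). ADAM19 was at 11.04 and 11.11 in A375 with empty vector, against 12.98, 12.83 and 12.61 in WM266-4 with control siRNA, 3.31-fold lower (adjusted p = 0.00164). ADAM9 was at 5.11 and 5.00, against 6.16, 6.65 and 5.79, 2.21-fold lower (adjusted p = 0.00948). The lines did not overlap for these 3 sheddases or for ADAM17, which was at 7.96 and 7.77 with empty vector and 1.72-fold lower than with control siRNA (adjusted p = 0.0120). ADAM12, which also cleaves insulin-like growth factor binding proteins, was at 5.23, 6.44 and 6.34 with overexpression, against 4.52 and 5.14 with empty vector. Its difference of 1.17 was not called (adjusted p = 0.0595), was called without overexpression replicate 1 (1.56, adjusted p = 0.0121) or siRNA 1 replicate 1 (adjusted p = 0.0449), and a second probe detected on 10 arrays went the other way (-0.71, 95% interval -1.81 to 0.39).

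ADAM15, ADAM22 and ADAM23 were called in none of the 6 comparisons with all arrays in the fit. ADAM15 was at 11.12, 11.32 and 10.77 with overexpression, against 10.67 and 10.59 with empty vector (difference 0.44, adjusted p = 0.138), and without overexpression replicate 3 its difference was called (0.59, adjusted p = 0.0425). ADAM22 and ADAM23, which in the brain bind secreted ligands at synapses, were detected on every array of both lines. ADAM22 was at 6.95, 6.68 and 6.75 with overexpression, against 6.31 and 6.45 with empty vector (difference 0.41, adjusted p = 0.224). ADAM23 was at 9.78, 9.99 and 9.59, against 9.41 and 9.49 (difference 0.34, adjusted p = 0.312). Overexpression arrays lay above the empty vector arrays for both genes, by differences that did not pass the test.

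Of the ADAMTS enzymes, ADAMTS1, which cleaves the proteoglycans aggrecan and versican, was at 9.47, 9.12 and 9.83 with siRNA 1 and 9.05, 9.14 and 9.41 on the arrays labelled siRNA 2, against 9.38, 9.14 and 9.16 with control siRNA. The groups overlapped. In A375 it was at 8.21, 8.09 and 9.49 with overexpression, on both sides of 8.69 and 8.36 with empty vector (difference 0.075), and it was called in none of the 6 comparisons. Without overexpression replicate 3 the difference was -0.37 (adjusted p = 0.360). ADAMTS3, which removes the amino-terminal propeptide of procollagens, was detected on all 3 arrays labelled siRNA 2 (4.95, 4.98 and 4.93) and on 0 of 3 control arrays. By the bound described for MMP3 and MMP11, which leaves out the spread between arrays, it was at least 1.41-fold higher (adjusted p = 0.0317). That signal lay close to the detection limit of these arrays (4.42 to 4.47), and the call was lost without control replicate 1 (adjusted p = 0.103) or 2 (0.114) and without each array labelled siRNA 2 (0.0757 to 0.0835). It was also lost without background correction (adjusted p = 0.0767).

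PLAT, tissue plasminogen activator, was at 11.30, 11.40 and 12.17 with overexpression, against 10.48 and 10.61 with empty vector. The groups did not overlap, and the difference was 1.08 (2.11-fold, SE 0.311) with an adjusted p of 0.0517. With the replicate number as a block in WM266-4, which changes the estimate of the spread, the same difference was called (adjusted p = 0.0186). It was also called without labelled siRNA 2 replicate 1 (0.0334) or 2 (0.0302) or overexpression replicate 1 (0.0486), and without overexpression replicate 3 it was 0.80 (adjusted p = 0.132). In WM266-4 PLAT was at 12.12, 11.63 and 11.90 with siRNA 1 and 12.06, 10.89 and 11.48 on the arrays labelled siRNA 2, against 11.81, 11.30 and 11.54 with control siRNA, with overlapping groups. Between the lines it was lower in A375 with empty vector (log2 difference -1.01, 2.01-fold, adjusted p = 0.0334). PLAU, the urokinase activator, was detected on 1 of 3 siRNA 1 arrays, 2 of 3 arrays labelled siRNA 2 and 1 of 3 control siRNA arrays, and on 0 of the 5 A375 arrays.

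**Figure D3:**
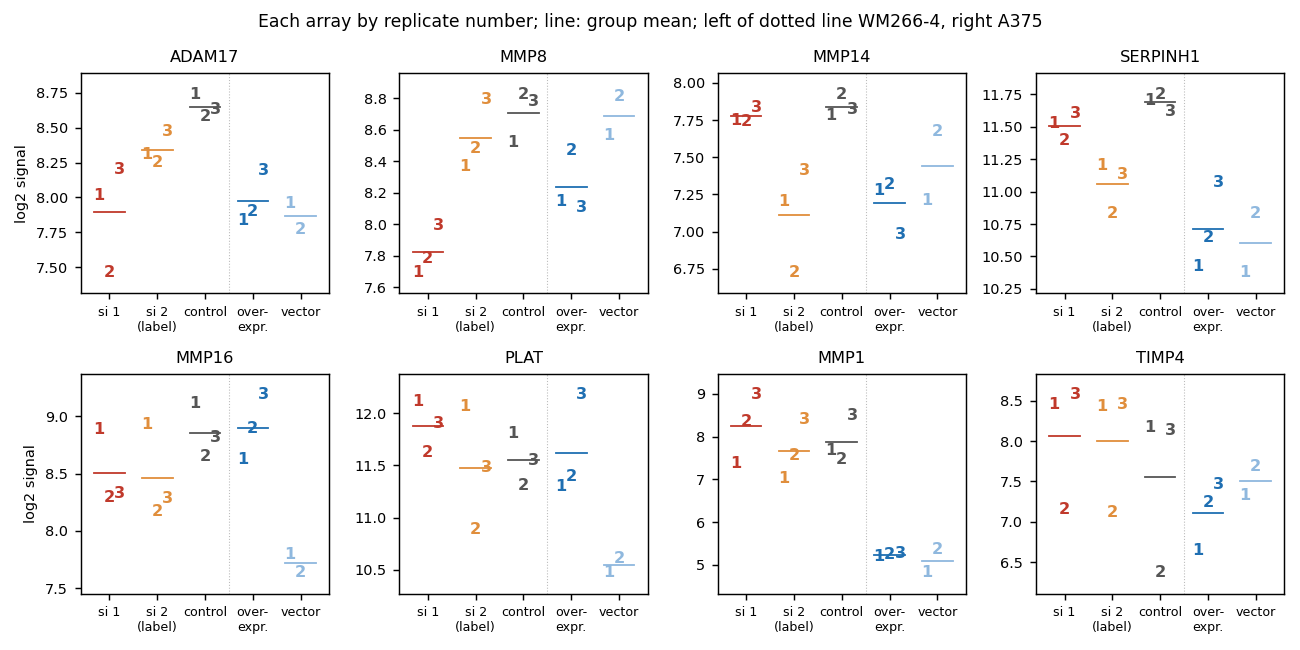
Log2 signal (y axis) of 8 members on each array, by group (x axis: si 1 is siRNA 1, si 2 the arrays labelled siRNA 2); each numeral is an array's replicate number, each line a group mean, and the dotted line separates WM266-4 (left) from A375 (right). MMP14 was low on all 3 arrays labelled siRNA 2, ADAM17 and MMP8 with siRNA 1, MMP16 and PLAT with empty vector, MMP1 in A375, and TIMP4 on every WM266-4 replicate 2.

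Of the metalloprotease inhibitors, TIMP1 was at 13.30, 13.27 and 13.61 with siRNA 1 and 13.08, 13.05 and 13.32 on the arrays labelled siRNA 2, against 13.51, 13.42 and 13.73 with control siRNA. The arrays labelled siRNA 2 lay below all control arrays (difference -0.40, adjusted p = 0.108), and with the replicate number as a block in WM266-4 the difference passed the test (adjusted p = 0.0496). TIMP2, which also bridges MMP14 to the MMP2 precursor, was at 12.71, 12.67 and 12.58 with overexpression, against 12.16 and 12.41 with empty vector. TIMP3, which binds to the matrix and inhibits ADAM17 too, was at 10.26, 10.38 and 10.76, against 9.91 and 10.14. For both inhibitors the overexpression arrays lay above the empty vector arrays, and the differences of 0.37 and 0.44 were not called (adjusted p = 0.150 and 0.199). Without overexpression replicate 3 they were 0.41 and 0.29 (adjusted p = 0.150 and 0.425). In WM266-4 TIMP2 differed from control siRNA by 0.18 with siRNA 1 and 0.17 on the arrays labelled siRNA 2, and TIMP3 by 0.36 and -0.10, none of them called. TIMP4 ranged from 6.37 to 8.57 in WM266-4 and is described with the replicate numbers below.

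SERPINH1, the collagen chaperone, was at 11.20, 10.83 and 11.13 on the arrays labelled siRNA 2 and 11.53, 11.39 and 11.60 with siRNA 1, against 11.71, 11.75 and 11.62 with control siRNA. The 3 groups did not overlap. SERPINH1 was 1.55-fold lower on the arrays labelled siRNA 2 (log2 difference -0.64, SE 0.178, adjusted p = 0.0474), and differed by -0.18 with siRNA 1 (95% interval -0.56 to 0.20, adjusted p = 0.596). With the replicate number as a block in WM266-4 the call was lost (adjusted p = 0.0564), as it was in 10 of 14 fits that left out 1 array: each control array (0.0802 to 0.135), each siRNA 1 array (0.0602 to 0.0643), each array labelled siRNA 2 (0.0703 to 0.164) and overexpression replicate 2 (0.0591). The difference between the siRNA groups was 0.45 and not called (adjusted p = 0.187). SERPINE2, an inhibitor of thrombin and of the plasminogen activators, was at 14.01, 13.78 and 13.87 with siRNA 1 and 13.84, 13.78 and 13.89 on the arrays labelled siRNA 2, against 14.03, 14.05 and 13.89 with control siRNA. Neither difference from control was called (-0.11 and -0.15, adjusted p = 0.696 and 0.578). In A375 it was at 13.71, 13.76 and 13.93 with overexpression, against 13.41 and 13.71 with empty vector (difference 0.24, adjusted p = 0.356). SERPINF1, a secreted serpin known for restraining blood vessel growth, was detected on 1 of 3 overexpression arrays and 2 of 2 empty vector arrays, and on no WM266-4 array. In A375 with empty vector against WM266-4 with control siRNA it was at least 1.46-fold higher by the same kind of bound (adjusted p = 0.0254).

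**Figure D4:**
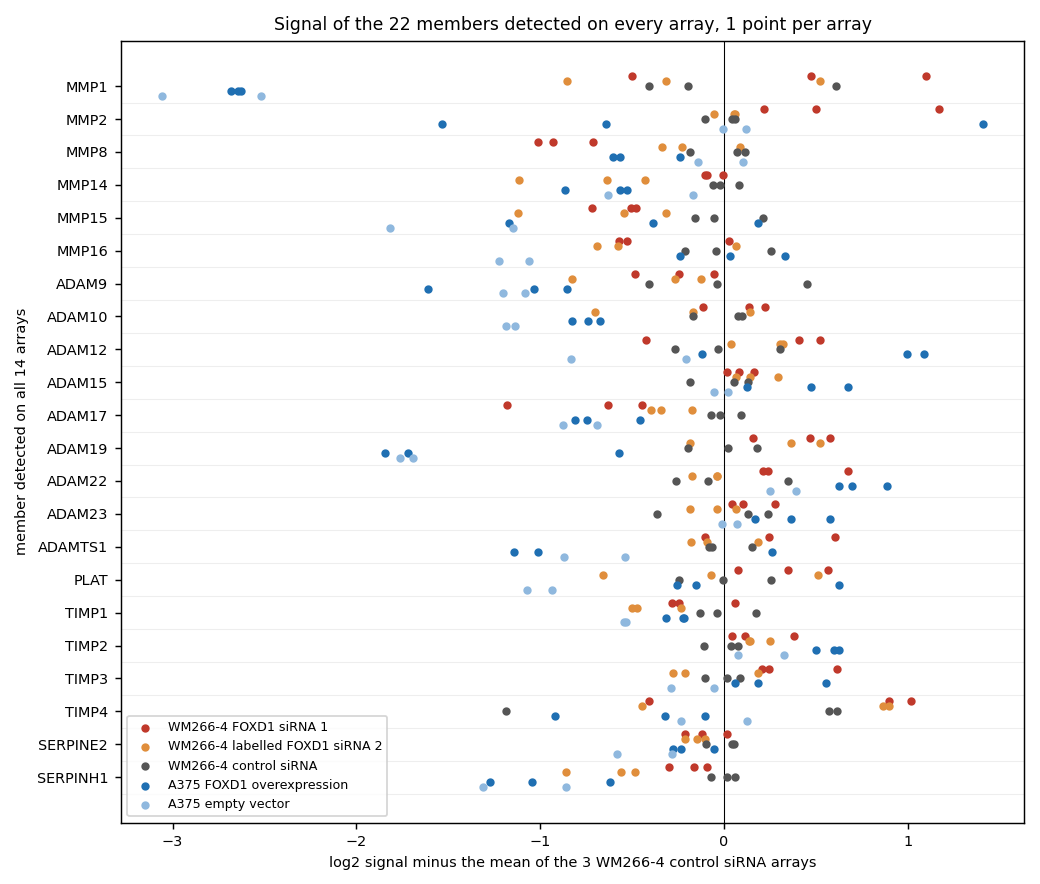
Log2 signal of the 22 members detected on every array, minus the mean of the 3 WM266-4 control siRNA arrays (x axis), with 1 point per array coloured by group. The A375 points lie farthest to the left for MMP1, at about the same place with and without FOXD1 overexpression, and the TIMP4, MMP2 and ADAMTS1 points of a single group spread widely.

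Between the lines, the 12 members lower in A375 with empty vector were the collagenase MMP1, the stromelysin MMP3, the membrane-type MMP15 and MMP16, the sheddases ADAM9, ADAM10, ADAM17 and ADAM19, PLAT, TIMP1, SERPINE2 and SERPINH1. The 2 higher ones were MMP11 and SERPINF1. MMP15 was at 6.25 and 6.92 in A375 with empty vector, against 8.28, 7.91 and 8.02 in WM266-4 with control siRNA, 2.79-fold lower (adjusted p = 0.00573), and MMP16 was 2.21-fold lower (adjusted p = 0.00547; second probe -1.39, adjusted p over all probes = 0.00825). SERPINH1 was at 10.38 and 10.83, 2.12-fold lower (adjusted p = 0.00170), TIMP1 at 13.01 and 13.02, 1.45-fold lower (adjusted p = 0.0239), and SERPINE2 1.35-fold lower (adjusted p = 0.0484, and 0.0569 with the replicate block in WM266-4). For all 14 called members the arrays of the lines did not overlap. The share of all genes without overlap was not counted, so this adds nothing to the calls. MMP14 differed by -0.40 and was not called (adjusted p = 0.179), and MMP2, MMP8, ADAM15, ADAM23 and TIMP4 differed by at most 0.06 in either direction. The lines also differ in what they were given, an empty vector in A375 and a control siRNA in WM266-4, so line and treatment cannot be told apart. The summed log2 level of 6 fibroblast markers was 9.77 to 11.78 over the A375 arrays, overexpression included, and 11.60 to 12.56 over the WM266-4 arrays. That sum mostly follows COL1A2, detected on all arrays, whereas PDGFRA was on none, so it does not measure fibroblasts. COL1A2 was at 9.53 and 9.65 with empty vector, against 11.90, 11.72 and 12.09 with control siRNA. The part of these markers in the differences between the lines was not tested.

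The calls of MMP1, ADAM10, ADAM19 and SERPINH1 between the lines held whichever array was left out. When 1 empty vector array is left out the other stands alone and is taken to vary like the other groups. Without empty vector replicate 1, the calls of MMP15 (adjusted p = 0.0814), MMP11 (0.197), MMP3 (0.134), PLAT (0.155), SERPINE2 (0.315), SERPINF1 (0.0819) and TIMP1 (0.0939) were lost. Without empty vector replicate 2, those of ADAM17 (0.102), ADAM9 (0.0753), MMP16 (0.0565), MMP11 (0.0647), MMP3 (0.0769), PLAT (0.115), SERPINF1 (0.132) and TIMP1 (0.0991) were lost. Leaving out control siRNA replicate 1 lost MMP11 (0.0733), MMP3 (0.0795), PLAT (0.104), SERPINE2 (0.113) and SERPINF1 (0.0603), replicate 2 lost SERPINE2 (0.115), and replicate 3 lost MMP11 (0.0728), PLAT (0.0653), SERPINE2 (0.0572), SERPINF1 (0.0653) and TIMP1 (0.0795). SERPINE2 was also lost without any 1 of the 6 siRNA arrays (0.0545 to 0.0639) and without overexpression replicate 1 or 2 (0.0542 and 0.0564).

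Same-numbered arrays of the 3 WM266-4 groups shared a pattern, and the members took part in it. In each of these groups replicate 2 was the lowest array for 12 of the 50 tested members, beside 7.64% of all genes, and for 8 of the 22 members detected on every array, beside 9.04% of the 9753 such genes. The 12 were ADAM10, ADAM17, ADAM21, ADAM23, ADAMTS5, ADAMTS6, ADAMTS8, MMP15, MMP16, PLAT, TIMP1 and TIMP4. TIMP4 was at 8.45, 7.15 and 8.57 with siRNA 1 and 8.43, 7.12 and 8.46 on the arrays labelled siRNA 2, against 8.17, 6.37 and 8.13 with control siRNA. Replicate 2 of each group was thus far below replicates 1 and 3, which lay close together. In an F-test of the replicate number in WM266-4 (limma), TIMP4 alone of the members was called (adjusted p = 0.00409), beside 0.740% of all genes. All 6 siRNA arrays were above the control array of the same number. The differences from control were 0.50 with siRNA 1 and 0.44 on the arrays labelled siRNA 2. They were not called without the replicate block (adjusted p = 0.606 and 0.703) or with it in WM266-4 (0.129 and 0.231). With the block in both lines TIMP4 was called with siRNA 1 (adjusted p = 0.0291) and not on the arrays labelled siRNA 2.

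Genes that work with the members were taken from lists of plasminogen activation partners, proprotein convertases, further metalloprotease inhibitors, ADAM regulators, cysteine cathepsins, cystatins, other matrix and surface proteases, ADAMTS-like proteins and further serpins, 78 genes of which 62 were tested. With siRNA 1, 5 were called higher and 2 lower against control siRNA, 11.3% of those tested beside 13.3% of all genes. On the arrays labelled siRNA 2, 0 were higher and 5 lower (8.06% beside 6.58%). For the mean of both, 4 were higher and 3 lower (11.3% beside 11.2%), and siRNA 1 against the arrays labelled siRNA 2 gave 3 higher and 0 lower (4.84% beside 5.51%). Overexpression gave 9 higher and 2 lower (17.7% beside 7.15%). Without overexpression replicate 3 it gave 10 higher and 2 lower, and the share of all genes in that fit is not given. There BMP1 and CST1 were no longer called, and A2M, CTSB and PCSK6 were added. The lines gave 7 higher and 12 lower in A375 with empty vector (30.6% beside 21.0%). The lists were chosen with earlier results of these data known, so none of these shares is read as an enrichment.

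FURIN, the convertase that cuts the precursors of MMP14, MMP11 and many ADAMs to their active forms, was at 7.08, 6.69 and 7.30 with siRNA 1 and 5.87, 5.41 and 6.24 on the arrays labelled siRNA 2, against 4.99, 4.79 and 5.76 with control siRNA. The siRNA 1 arrays lay above all others of WM266-4, and FURIN rose by 1.85 with siRNA 1 (SE 0.295, adjusted p = 0.000884) and was 1.18 higher than on the arrays labelled siRNA 2 (adjusted p = 0.0298). The cystatin CST1, a secreted inhibitor of cysteine cathepsins, was at 5.12, 4.42 and 5.78 with siRNA 1 and 6.08, 4.60 and 6.20 on the arrays labelled siRNA 2, against 8.11, 6.61 and 8.05 with control siRNA. Both siRNA groups were below control, with log2 differences of -2.48 and -1.96 (adjusted p = 0.00388 and 0.0288). In A375 CST1 was at 6.51, 7.75 and 7.38 with overexpression, against 5.26 and 4.75 with empty vector, and rose by 2.21 (adjusted p = 0.0281), a call lost without overexpression replicate 3 (2.13, adjusted p = 0.0601). The neutrophil serine protease gene CTSG fell in both siRNA groups, with log2 differences of -2.36 for siRNA 1 and -2.31 for the arrays labelled siRNA 2 (adjusted p = 0.0236 and 0.0442).

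On the arrays labelled siRNA 2 the intracellular serpins SERPINB1 and SERPINB8 fell by 0.83 and by 0.74 (adjusted p = 0.0201 and 0.0432). PLAUR, the receptor of PLAU, was the other one called there (-0.69, adjusted p = 0.0363) and is named after its values were seen. With overexpression the collagen-degrading cathepsin CTSK rose by 2.10 (10.39, 10.11 and 10.45, against 8.02 and 8.42 with empty vector; adjusted p = 0.00157). RECK, a membrane-anchored inhibitor of MMP14, MMP2 and MMP9, rose by 1.62 (7.88, 8.21 and 7.59, against 6.42 and 6.11; adjusted p = 0.00552). Neither pair of groups overlapped. SERPINA5, which inhibits activated protein C and PLAU, fell by 1.60 (adjusted p = 0.0166). Without overexpression replicate 3 the calls of CTSK, RECK and SERPINA5 held (2.03, 1.78 and -1.75, adjusted p = 0.00443, 0.00541 and 0.0182). Between the lines the largest differences were in CTSG (-3.20), CST1 (-2.59), SERPIND1 (-2.58), an inhibitor of thrombin, and PRSS23 (-2.32), each lower in A375 with empty vector (adjusted p = 0.00567, 0.00438, 7.01e-06 and 0.000497).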

How the data were processed

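Total RNA of 14 samples was measured on Illumina bead arrays. Intensities were deposited per probe, linear and not normalized, per the file headers, and a detection p-value stands beside it in the deposited table. The authors also deposited processed log2 values, in a table whose scale was read from the values. The scanner software, and how the detection p-value was computed, are not given in the sources used here. Of 48107 probes, 48097 had no missing value; 30107 had a single gene symbol in the platform annotation, 8 several and 17982 none.

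Intensities were background-corrected with normexp (background from the detection p-values, offset 16) and turned into log2 values. These were then quantile normalized over the 14 arrays, with limma 3.58.1 in R 4.3.3. For A375 empty vector replicate 1, whose column is a copy, the antilog of the authors' log2 values was used. Probes needed a detection p under 0.05 on at least 2 arrays. A gene was represented by its brightest named probe by the mean of the authors' log2 values, and for 0 of the 50 tested members would normexp values have picked another. A single limma fit (lmFit, eBayes) held the 5 groups, with 9 residual and 5.10 prior degrees of freedom. It had no term for the replicate number, so it ignored the pairing of same-numbered WM266-4 arrays described below. Unless another is named, adjusted p-values of genes come from that fit (Benjamini-Hochberg over 15544 genes). Members and lists, and the rule for named genes (members called in any comparison, a set of main members, and up to 4 called partner genes a comparison by size of change), were chosen with earlier results of these data known.

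Replicate numbers come from the sample titles. In WM266-4, deviations from the group means correlated between same-numbered arrays of different groups (r = 0.141 to 0.273, 9 pairs) and not between others (-0.195 to -0.0456, 18 pairs), so the numbers were taken to pair these arrays; in A375 the 2 same-numbered pairs gave -0.0289 and 0.0373. Tested on simulated data with 15544 genes, the fit recovered 63% of changes of 1 (log2) for siRNA 1, 75% for siRNA 2, 65% for overexpression and 62% for the line difference. Alternatives covered the background correction, normalization, filter, moderation, probe choice, replicate block, single lines, the copied column and each array left out. Gene names and promoters came from RefSeq tables (GRCh38.p14), and the number of arrays limits the precision.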

Additional observations from a re-analysis of the deposited data

Results flagged for a closer look

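The change of MMP14 differed between the siRNAs in the test of the difference itself: siRNA 1 minus the arrays labelled siRNA 2 was 0.66 on the log2 scale (SE 0.178, adjusted p = 0.0444), with all 3 siRNA 1 arrays (7.74 to 7.83) above all 3 arrays labelled siRNA 2 (6.73 to 7.41). The same test found the opposite sign for MMP8, with -0.72 (SE 0.160, adjusted p = 0.0157) and all 3 siRNA 1 arrays (7.70 to 7.99) below all 3 arrays labelled siRNA 2 (8.37 to 8.79). These were 2 of 50 members (4%), beside 5.51% of all genes called in that test. Of 14 fits that left out 1 array, 10 lost the MMP14 call and 3 the MMP8 call. A dimmer MMP8 probe differed by -0.41 and was not called over all probes. FOXD1 was lower only with siRNA 1, and its part in either difference was not tested.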

How the results depend on the processing

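No difference called with all arrays changed sign under any alternative run. The counts of members called were 2 for siRNA 1, 3 for the arrays labelled siRNA 2, 2 for their mean, 2 for siRNA 1 against the arrays labelled siRNA 2, 1 for overexpression and 14 between the lines. With the replicate block in both lines they were 5, 6, 6, 3, 7 and 13; with the block in WM266-4 only, chosen after seeing the data, overexpression gave 2 (PLAT added) and the call changed for 3 other members already named (SERPINH1, TIMP1 and SERPINE2). In A375 the numbers share no pattern. Trend and robust moderation gave 4 for the mean of the siRNAs and 3 for overexpression. Overexpression also gave 3 without background correction, 4 with the authors' log2 values and 2 with the stricter filter (detection p under 0.01 on at least 3 arrays). The copied column as deposited gave 0 for the mean of the siRNAs, 0 for siRNA 1 against the arrays labelled siRNA 2, 0 for overexpression and 6 between the lines. Its use in place of the processed values makes 1 of the 2 empty vector arrays an overexpression array. The share of all genes called under these alternatives is not given, so a higher or lower count there is not read as a result about the members.

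Leaving out 1 array gave 2 to 2 members for siRNA 1, 0 to 3 for the arrays labelled siRNA 2, 0 to 2 for the mean, 0 to 3 between the siRNAs, 1 to 5 for overexpression and 7 to 15 between the lines. Over all genes, these fits called 1314 to 2328 for siRNA 1 and 560 to 1265 for the arrays labelled siRNA 2. They called 914 to 1996 for the mean and 476 to 1008 between the siRNAs. The all-gene range is not given for overexpression or the lines, where some fits keep only 1 empty vector array. The ranges of members in those comparisons are therefore not read as results about the members. The count of members for the arrays labelled siRNA 2 was 0 without control replicate 1 or 2 or labelled siRNA 2 replicate 1 or 2. It was 1 without control replicate 3 or labelled siRNA 2 replicate 3. For the mean it was 0 without control replicate 2 or 3 or labelled siRNA 2 replicate 1, and 1 without control replicate 1, siRNA 1 replicate 2 or labelled siRNA 2 replicate 2 (MMP8 each time) or siRNA 1 replicate 1 (ADAMTS3, not among the 2). Between the siRNAs it was 0 without siRNA 1 replicate 1, and 1 without any 1 control array, siRNA 1 replicate 3, labelled siRNA 2 replicate 1, or overexpression replicate 1 or 2 (MMP8 each time), labelled siRNA 2 replicate 3 (MMP14) or siRNA 1 replicate 2 (ADAMTS3, not among the 2). For overexpression it was 5, 2 and 3 without overexpression replicate 1, 2 and 3 (MMP16 in each), 1 without empty vector replicate 2 (ADAM32 in place of MMP16), and 2 without siRNA 1 replicate 1 or labelled siRNA 2 replicate 1 or 2. Between the lines it was 9 without control replicate 1 or 3 and 7 without either empty vector replicate. Apart from the copied column's own construction, the cause of these changes was not tested. Of 96 pairs of another probe and a comparison, 62 had the sign of the brightest probe and 34 the opposite, and 3 were called over all probes. In the 13 pairs whose brightest probe was called all 13 had its sign. Those 13 came only from ADAM10, ADAM17, ADAM19, MMP8 and MMP16, of 17 members called in any comparison. They share arrays, so they are not separate checks, and the second MMP8 probe differed by only -0.04 for the mean of the siRNA groups. Signals near the detection limit (ADAMTS3, MMP3, MMP11, SERPINF1) limit what these arrays resolve.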
